A study of Mus musculus with 22 samples.

Results

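*Hes1*, *Hes5*, *Hey1* and *Hey2* encode basic helix-loop-helix repressors that are direct targets of Notch signaling. They were chosen by name, as the 4 Hes and Hey genes among the 998 genes measured, and their counts were followed in cells sorted by marker transcripts and in cells with or without transcripts of a Notch ligand. The data come from spatial transcriptomics of the aorta-gonad-mesonephros region (AGM), the embryonic tissue around the dorsal aorta, in which fluorescent probes count single transcripts inside segmented cells. There were 22 transverse sections of 10 µm, 13 of them labelled Knockout (sections 1 to 13; *Nr4a1*−/−*Nr4a2*−/−) and 9 labelled Wildtype (sections 14 to 22; *Nr4a1*+/+*Nr4a2*+/+), all from E10 mouse embryos. The deletions are germline alleles carried by every cell, and in the study's methods the lines had been backcrossed to C57BL/6J.

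All sections of a genotype came from 1 embryo. Differences between Knockout and Wildtype sections are therefore differences between 2 embryos, p-values over sections are too small for a statement on genotype, and by the study's methods each slide held sections of 1 genotype, so embryo, slide and genotype cannot be told apart. Sections of each embryo carry a set number, 1 or 2, that may be a slide, and a number that both embryos carry is no shared slide. Of 37575 cells in the files, 37570 had at least 10 transcripts and 10 genes (21191 Knockout and 16379 Wildtype). Section totals ran from 169027 to 887896 transcripts, with a median of 203 transcripts per cell over all cells and section medians of 87 to 332. No cell name occurred more than once among the sections of 1 embryo and set number, and no count vector occurred more than once among cells of 50 or more transcripts. The targeted genes did not separate the embryos: *Nr4a1* stood at 2.24 ± 0.250 transcripts per 10000 (mean ± SD) in 13 Knockout sections and 2.77 ± 0.274 in 9 Wildtype sections, and *Nr4a2* at 4.17 ± 0.620 and 4.89 ± 0.830, with adjusted p of 0.716 and 0.860 in the edgeR test between embryos. Where their probes lie relative to the deleted parts is not given in the sources used here, so these genes did not check the labels. The study's text also counts sections per genotype differently from the labels, which were followed here, and every direction between Knockout and Wildtype rests on them.

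Notch receptors are cut after they bind a Delta-like or Jagged ligand on a neighbouring cell, and the released intracellular domain joins the DNA-binding protein RBPJ and Mastermind-like co-activators to switch on Hes and Hey genes. In the dorsal aorta, DLL4 and JAG1 signal through NOTCH1, *Hey1* and *Hey2* are known for arterial identity, *Hes1* is used in hemogenic endothelium, and Notch signaling falls as hematopoietic cells form from it. *Hes5* is best known from neural progenitors, where it holds back differentiation.

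RBPJ binds the core TGGGAA, and the upstream windows of the members were searched for it on both strands (reverse complement TTCCCA, capitals below), because it links these genes to the Notch complex. The RefSeq table of promoters (GRCm38.p6) held windows for *Hes5* and *Hey2*, while *Hes1* and *Hey1* are named only. For *Hey2*, on the minus strand of chromosome 10, the 250 bases before the start at chr10:30842784-30843033 hold 1 match, 207 bases before the start and read on the opposite strand. For *Hes5*, on the plus strand of chromosome 4, the window chr4:154960673-154960922 holds 2 matches, 226 bases before the start on the opposite strand and 82 bases before it on the gene's strand. The window of *Hes5* lies inside the RefSeq gene record, which begins at 154960626, so only the 30 bases around each match are shown, at chr4:154960685-154960714 and chr4:154960829-154960858.
Hey2 upstream: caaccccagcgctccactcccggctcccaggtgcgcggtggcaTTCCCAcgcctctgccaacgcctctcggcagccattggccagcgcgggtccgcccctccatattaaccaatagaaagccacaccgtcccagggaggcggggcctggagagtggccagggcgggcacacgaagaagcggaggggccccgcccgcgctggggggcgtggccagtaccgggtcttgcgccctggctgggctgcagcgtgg
Hes5 first match: agggcgagcgcgTTCCCAcagcccggacat
Hes5 second match: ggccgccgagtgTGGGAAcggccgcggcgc
Of 32851 promoter windows of the same length, 21.6% held at least 1 match and 2.77% held 2 or more. The windows of the ligand genes *Dll1*, *Dll4*, *Jag1* and *Jag2* held none. A match is a run of letters and not evidence of binding, and these letters may occur outside the windows.

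Cells were sorted by transcripts of genes other than the members. Cells with 3 or more *Cdh5* transcripts (VE-cadherin, an endothelial junction protein) formed the *Cdh5* gate, with 1344 cells, 720 Knockout and 624 Wildtype. Cells with 4 or more transcripts of *Tagln* and *Acta2* together (smooth muscle cytoskeleton) numbered 1032, cells with 4 or more of *Twist1* (a mesenchymal transcription factor) 3928, and 30642 cells passed no gate. Another 624 cells passed several gates and were left out. In the *Cdh5* gate, 11 of 11 other endothelial markers were above the cells outside all gates, 7 of them at least 2-fold, with *Pecam1* at 3.23-fold. The *Tagln* + *Acta2* gate had 6 of 6 smooth muscle markers higher, from 1.19-fold for *Myh11* to 5.90-fold for *Tpm2*, but *Col1a1* stood at 4.33-fold there too. Only 5 of 8 mesenchymal markers were higher in the *Twist1* gate, none by more than the 1.20-fold of *Twist2*, so the classes are called by their gates. Gated cells held more transcripts than the rest, with medians of 418.5, 493 and 442 per cell against 151.

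All 4 members were detected in both embryos, and all 4 passed the filter on low counts in each comparison of embryos and classes. Over all cells, 4159 *Hes1* transcripts were counted in Knockout and 2731 in Wildtype sections, 2347 and 1687 of *Hes5*, 2953 and 2493 of *Hey1*, and 1488 and 1437 of *Hey2*. *Hey2* lay near the dim end of the panel, with 2.65 and 3.38 transcripts per 10000 against means of 2.29 and 2.77 for the dimmest 5% of genes, and only 3.61% and 4.21% of genes were lower. *Hes5* was also dim in Wildtype sections, at 3.96 with 8.82% of genes lower, against 4.19 and 27.6% in Knockout sections. Probe brightness differs between genes, so levels are compared here for 1 gene at a time.

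**Figure D1:**
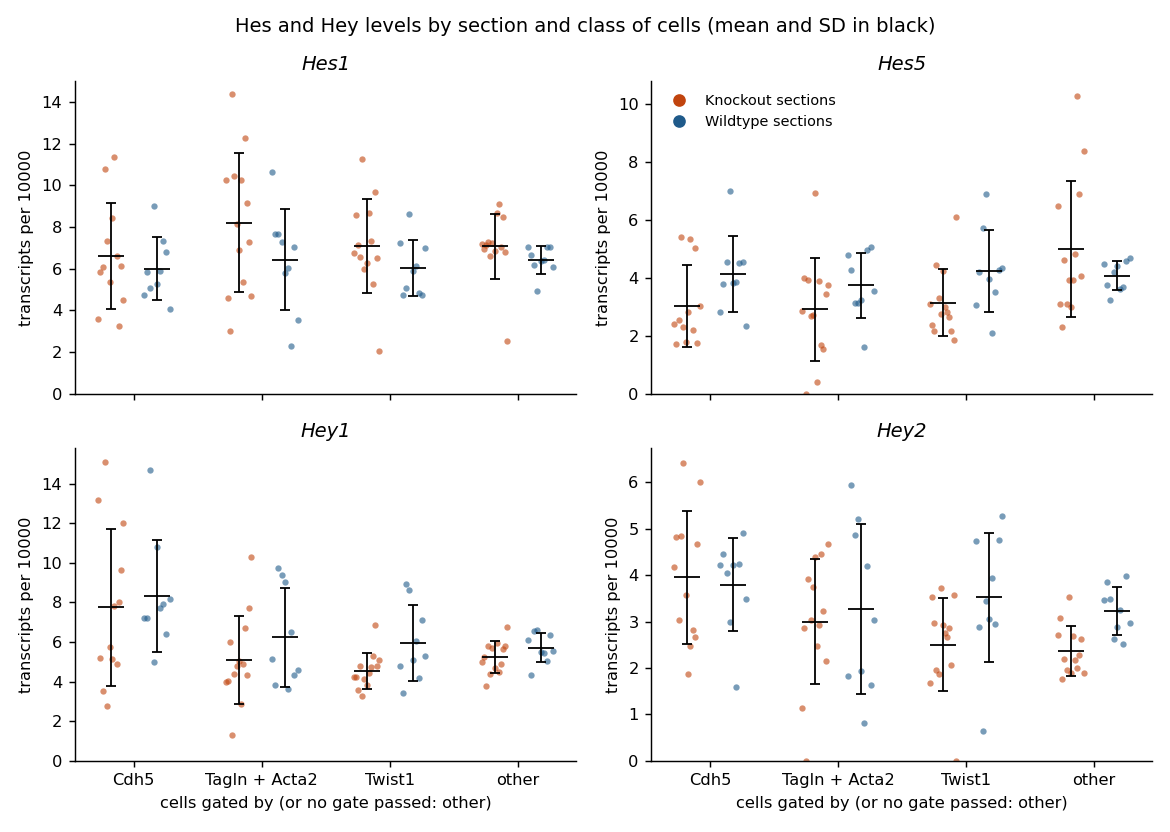
Transcripts of each member per 10000 transcripts (y axis) in each class of cells (x axis), with 1 point per section and Knockout and Wildtype sections shown apart. *Hey1* and *Hey2* sit higher in the Cdh5 gate than in the other cells in most sections, while the embryos' ranges overlap for every member in every class.

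*Hey1*, a target tied to arterial endothelium, was the member most clearly raised in the *Cdh5* gate. Its level there was 2.75 transcripts per 10000 at the lowest, 7.71 at the median and 15.1 at the highest of 21 sections, against 3.79, 5.50 and 6.62 in the other cells of the same sections (1 Knockout section had too few gated cells). *Hey1* was higher in the gate than in the other cells of the same section in 17 of 21 sections, 9 of 12 Knockout and 8 of 9 Wildtype. On the normalised scale the log2 difference was 0.61 (SE 0.09, 95% interval 0.43 to 0.78, adjusted p = 3.05e-08, edgeR with section as a block). The rise was seen within each embryo, with 0.55 in Knockout sections alone (adjusted p = 0.000857) and 0.66 in Wildtype sections alone (adjusted p = 6.96e-05). Its size moved with the gate, from 0.31 (adjusted p = 0.00257) with a looser gate of 2 or more *Cdh5* transcripts to 0.70 (adjusted p = 5.20e-06) with a stricter one of 5 or more.

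*Hey2*, a close relative of *Hey1*, was also higher in the *Cdh5* gate. Its levels were 1.59, 4.19 and 6.42 transcripts per 10000 in the gate (lowest, median and highest) and 1.77, 2.70 and 3.98 in the other cells, and it was higher in the gate in 18 of 21 sections, 10 of 12 Knockout and 8 of 9 Wildtype. The log2 difference was 0.52 (SE 0.13, 0.28 to 0.77, adjusted p = 0.00084). Knockout sections alone gave 0.71 (adjusted p = 0.000991) and Wildtype sections alone 0.33 (adjusted p = 0.416), and the test of the difference between the embryos did not pass (0.37, 95% interval −0.13 to 0.87, adjusted p = 0.920). The call was also lost with both other gates: a looser gate of 2 or more *Cdh5* transcripts gave 0.30 (adjusted p = 0.0638) and a stricter one of 5 or more gave 0.49 (adjusted p = 0.0685).

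The 2 Hes genes did not pass the threshold in the *Cdh5* gate. *Hes1* differed from the other cells by −0.12 on the log2 scale (95% interval −0.32 to 0.08, adjusted p = 0.520) and *Hes5* by −0.32 (−0.64 to 0.00, adjusted p = 0.177). Thus 2 of 4 members were called in this comparison, both higher, where 19.1% of all 998 genes were called, 110 higher and 81 lower (86 and 146 with library totals alone). Among the 9 other core Notch genes, 3 were higher in the *Cdh5* gate and 1 was lower. These were the receptor gene *Notch1* (0.88, adjusted p = 1.40e-16) and the ligand genes *Dll4* (0.97, adjusted p = 1.28e-15) and *Jag2* (0.38, adjusted p = 0.00749), with *Notch2* at −0.30 (adjusted p = 0.00815). *Dll1*, *Jag1*, *Notch3*, *Rbpj* and *Maml2* did not pass the threshold. The median log2 difference was 0.14 over these 9 genes and −0.02 over all genes. The arterial gene *Efnb2* was higher by 0.57 (adjusted p = 1.29e-08) and the venous gene *Ephb4* by 0.42 (adjusted p = 2.43e-07), so the gate held both kinds of endothelial transcripts.

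In the *Tagln* + *Acta2* gate no member passed the threshold, where 14.2% of genes were called, 95 higher and 47 lower (61 and 226 with library totals alone). The values were 0.25 for *Hes1* (adjusted p = 0.0802), −0.30 for *Hes5* (0.294), 0.08 for *Hey1* (0.781) and 0.25 for *Hey2* (0.309). In the *Twist1* gate 9.62% of genes were called, 56 higher and 40 lower (35 and 73 with library totals alone), and *Hes5* was the member among them, lower by 0.44 on the log2 scale (log2 difference −0.44, SE 0.12, −0.68 to −0.20, adjusted p = 0.00757) and below the other cells in 17 of 22 sections. The fits of all gates used the 21 sections with at least 10 cells of every class. The neural gene *Sox2* was at 0.330 times its level in the other cells in that gate, and 0 of 6 neural markers were higher there. Its part in the value of *Hes5* was not tested, and Wildtype sections alone gave −0.09 (adjusted p = 0.896). *Hey2* was at 0.28 in this gate (adjusted p = 0.0597), *Hes1* at −0.00 (0.993) and *Hey1* at −0.07 (0.704). Of the core genes, *Dll1* was lower in the *Twist1* gate (−0.25, adjusted p = 0.0124) and none was called in the *Tagln* + *Acta2* gate. Of the other 24 genes of the study's Notch list, 5 were higher and 3 lower in the *Cdh5* gate, 5 and 3 in the *Tagln* + *Acta2* gate and 1 and 2 in the *Twist1* gate.

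**Figure D2:**
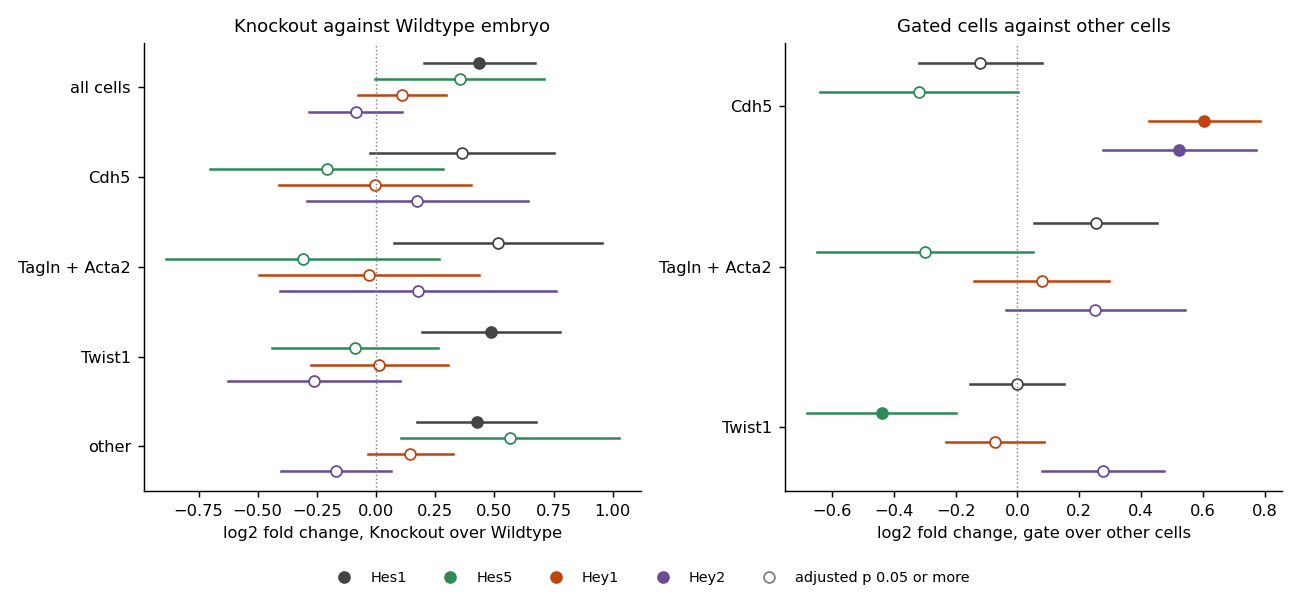
Log2 fold changes (x axis) of the 4 members between the embryos in each class (left) and between each gate and the other cells (right). Points are edgeR estimates, lines 95% intervals, filled points adjusted p under 0.05. *Hes1* is higher in Knockout sections over all cells, in the Twist1 gate and in the other cells, and *Hey1* and *Hey2* are higher in the Cdh5 gate.

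The share of cells with a transcript was also compared at 1 depth. Without thinning, 22.1% of Knockout and 24.7% of Wildtype cells of the *Cdh5* gate had at least 1 *Hey1* transcript, against 8.09% and 9.43% of the other cells, but the gated cells were deeper. With each cell of 100 or more transcripts thinned to 100, the share with *Hey1* was 7.24 ± 2.52% in the *Cdh5* gate and 4.95 ± 0.749% in the other cells (mean ± SD over 21 and 22 sections). For *Hey2* the thinned shares were 3.64 ± 1.20% and 2.55 ± 0.622%. *Hes1* stood at 5.90 ± 2.07% and 6.06 ± 1.22%, and *Hes5* at 3.20 ± 1.34% and 3.82 ± 1.24%. The ratio of gate to other cells was 1.46 for *Hey1*, 1.43 for *Hey2*, 0.973 for *Hes1* and 0.836 for *Hes5*, and each difference in mean was smaller than the spread of the gate's shares between sections. No test was run on these shares, and misassigned transcripts at segmentation borders give every class some share of each gene.

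Between the embryos, *Hes1* was the 1 member called over all cells after TMM scaling. Over all cells its level ran from 2.72 transcripts per 10000 in section 13, through a median of 7.0, to 8.90 in Knockout sections, and from 5.39 through 6.30 to 6.99 in Wildtype sections. Of 13 Knockout sections, 12 lay above the Wildtype median and 7 above the highest Wildtype section, while section 13 lay below every Wildtype section. The log2 difference, Knockout over Wildtype, was 0.44 (SE 0.11, 95% interval 0.20 to 0.67, adjusted p = 0.00929). The other members over all cells were at 0.35 for *Hes5* (adjusted p = 0.196), 0.11 for *Hey1* (0.458) and −0.09 for *Hey2* (0.589), so 1 of 4 was called where 12.5% of all genes were. Per 10000 transcripts *Hey2* stood at 2.63 ± 0.477 in Knockout and 3.38 ± 0.435 in Wildtype sections. Of 13 Knockout sections, 1 lay above the Wildtype median. The median gene of the panel was also lower in Knockout sections on that scale, at 5.22 against 6.49 in pooled sections, so this difference is not particular to *Hey2*. In sums over cells, more cells that express a gene and more transcripts per cell cannot be told apart.

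By class, *Hes1* was higher in Knockout sections in the *Twist1* gate (0.49, SE 0.15, adjusted p = 0.0369) and in the other cells (0.43, SE 0.12, adjusted p = 0.0182). In the *Cdh5* gate it was at 0.36 (95% interval −0.02 to 0.75, adjusted p = 0.380) and in the *Tagln* + *Acta2* gate at 0.52 (0.08 to 0.95, adjusted p = 0.272). The share of all genes called was 6.52% in the *Cdh5* gate, 2.61% in the *Tagln* + *Acta2* gate, 3.91% in the *Twist1* gate and 12.2% in the other cells, and *Hes1* was the 1 member of 4 called in each of the last 2. None of the 9 core Notch genes was called between the embryos in any class with edgeR or DESeq2, and the 1 edgeR value at an unadjusted p under 0.05 was *Jag2* in the *Cdh5* gate (−0.50, unadjusted p = 0.0256, adjusted p = 0.222). With library totals alone, 5 of the 9 were lower in Knockout sections over all cells and in the other cells, and 1 in each of the *Cdh5* and *Twist1* gates. On that scale 719 of 998 genes were lower over all cells and 709 of 998 in the other cells. In the *Cdh5* gate 63 of 997 were lower and in the *Twist1* gate 131 of 998. The 5 hematopoietic markers summed to 784 transcripts per 10000 in the other cells of section 11, to 186 to 334 in the other 12 Knockout sections and to 167 to 353 in Wildtype sections. The 11 endothelial markers summed to 70.0 to 101 in Knockout and 86.1 to 111 in Wildtype sections. The 6 smooth muscle markers summed to 148 to 215 in Knockout and 110 to 186 in Wildtype sections. The 8 mesenchyme markers summed to 96.1 to 244 against 120.6 to 252, and the 5 epithelial markers to 33.3 to 57.9 against 36.5 to 58.6. The embryos' ranges overlapped for each of these lists, and no test was run on the sums. Cells of the *Twist1* gate made up 13.0% of Knockout and 7.21% of Wildtype cells. None of these markers was at 0 in any section, and the part of these markers and shares in the value of *Hes1* was not tested.

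These calls of *Hes1* rested on the scaling and on the sets of sections, and in the *Twist1* gate also on the gate's threshold. TMM scaling divides by a typical gene, while scaling to the library total alone left the median gene at −0.30 (log2, Knockout over Wildtype) over all cells and turned 98 higher and 27 lower calls into 58 and 719. On that scale *Hes1* was at 0.16 over all cells (adjusted p = 0.162), 0.28 in the *Twist1* gate (0.156) and 0.15 in the other cells (0.227), and *Hey2* was lower, at −0.36 over all cells (0.00192) and −0.44 in the other cells (0.00172). The higher and lower calls changed likewise from 54 and 11 to 29 and 63 in the *Cdh5* gate, from 26 and 0 to 8 and 5 in the *Tagln* + *Acta2* gate, from 38 and 1 to 26 and 131 in the *Twist1* gate and from 98 and 24 to 58 and 709 in the other cells. With the numbered sets of sections as a random block (limma), *Hes1* was at 0.40 over all cells (adjusted p = 0.116), 0.43 in the *Twist1* gate (0.189) and 0.41 in the other cells (0.107). Sections numbered 1 alone gave 0.40 over all cells (0.0222) and 0.35 in the *Twist1* gate (0.757), and sections numbered 2 alone gave 0.48 (0.172) and 0.61 (0.0797). In the *Twist1* gate the call was kept in 13 of 22 fits that left out 1 section and in 4 of 11 other alternatives. It was lost there with looser and stricter gates and without sections of unusual depth.

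*Hes5* differed more among the Knockout sections than between the embryos. In the other cells it ran from 2.31 through 4.06 to 10.3 transcripts per 10000 in Knockout sections and from 3.24 through 4.21 to 4.67 in Wildtype sections, and 5 of 13 Knockout sections lay above every Wildtype section. The log2 difference was 0.57 (95% interval 0.11 to 1.02, adjusted p = 0.103) over all sections, 0.93 in sections numbered 2 (adjusted p = 0.0158) and 0.15 in those numbered 1 (adjusted p = 0.754). The 4 highest sections for *Hes5* were sections 10, 13, 11 and 1, with 10.3, 8.38, 6.87 and 6.48 transcripts per 10000. The neural progenitor gene *Sox2* was at 30.3, 11.1, 13.4 and 14.6 in those sections, against 2.72 to 6.23 in the Wildtype sections. High *Sox2* did not always go with high *Hes5*: Knockout section 6 had *Sox2* at 10.96, near section 13, but *Hes5* at 3.94, inside the Wildtype range. Knockout section 9, with *Sox2* at 10.86, had *Hes5* at 4.82, just above the highest Wildtype section. The 6 neural markers measured summed to 34.2 to 78.9 over Knockout and 39.4 to 57.3 over Wildtype sections, none of them at 0 in any section. How much of each section is neural tissue depends on where it was taken along the body axis, which was not tested.

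**Figure D3:**
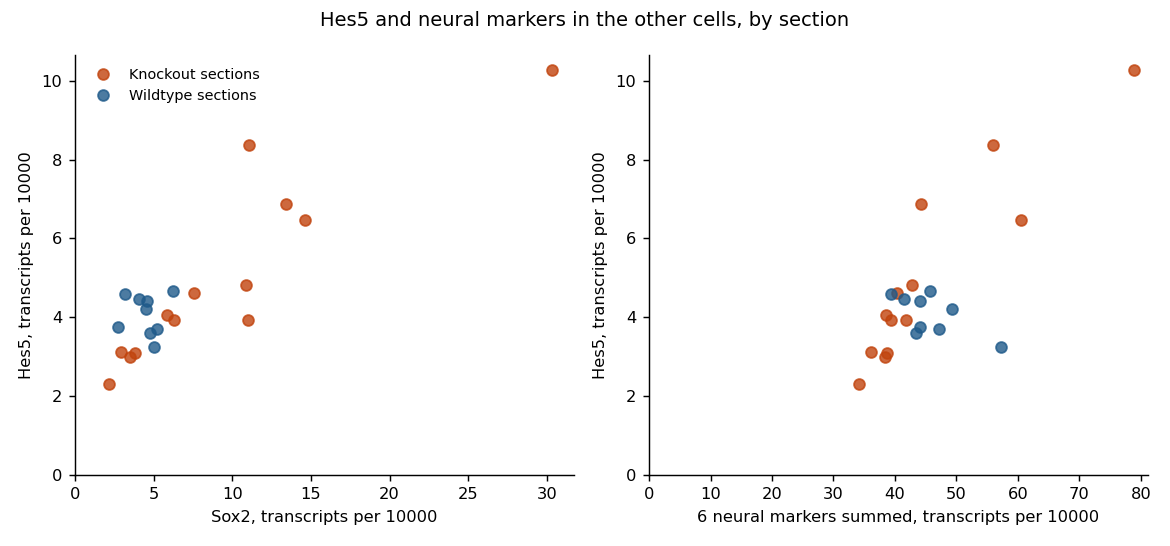
*Hes5* (y axis, transcripts per 10000) against *Sox2* (left) and the sum of 6 neural markers (right) in the other cells, with 1 point per section and the embryos in different colours. Section 10, with *Hes5* at 10.3 and *Sox2* at 30.3, lies farthest out, and the Wildtype sections lie between 2.72 and 6.23 for *Sox2*.

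Whether a gate's difference from the other cells itself differed between the embryos was tested as an interaction, and no member was called in any gate. For *Hes5* the interaction was −0.67 in the *Cdh5* gate (unadjusted p = 0.0235, adjusted p = 0.650), −0.82 in the *Tagln* + *Acta2* gate (0.0111 and 0.514) and −0.55 in the *Twist1* gate (0.0154 and 0.960). The share of all genes called was 0, 0.100 and 0% in the 3 gates with edgeR, and 54, 70 and 38 genes had an unadjusted p under 0.05.

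Among the cells outside all gates, *Hes5* made up a larger part of the transcripts in cells with *Sox2*. Cells with 3 or more *Sox2* transcripts, 443 in the 16 sections that had at least 5 of them, were set against cells with none. *Hes5* was at 0, 18.8 and 41.2 transcripts per 10000 in *Sox2*-positive cells (lowest, median and highest section) and at 2.61, 3.55 and 6.26 in negative cells. It was higher in the positive cells in 14 of 16 sections, 10 of 10 Knockout and 4 of 6 Wildtype. The log2 difference was 2.48 (SE 0.19, 2.10 to 2.86, adjusted p = 8.85e-26), where 7.72% of genes were called, 36 higher and 41 lower (41 and 98 with library totals alone). Wildtype sections alone, with 76 positive cells, gave 1.53 (adjusted p = 0.0567). The positive cells had a median of 265.5 transcripts against 144.

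*Hey1* in the *Sox2*-positive cells was at 0.67 (0.21 to 1.13, adjusted p = 0.0636) and was higher in 14 of 16 sections, *Hes1* at 0.37 (adjusted p = 0.400) and *Hey2* at −0.33 (adjusted p = 0.648). The Notch ligand gene *Dll1* was higher by 1.00 (adjusted p = 0.000141) and *Notch1* by 1.66 (adjusted p = 4.14e-13), 2 of the 9 core genes.

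*Hes1* was low in cells with transcripts of *Epor* and *Csf2rb*, cytokine receptor genes of hematopoietic cells. There were 495 cells outside the gates with 3 or more of these transcripts, in 22 sections, with a median of 501 transcripts per cell against 125.5 in cells without them. *Hes1* was at 0, 3.79 and 7.59 transcripts per 10000 in the positive cells and at 2.62, 7.19 and 9.66 in the negative cells, and was lower in the positive cells in 19 of 22 sections, the 3 exceptions being Wildtype. The log2 difference was −0.85 (SE 0.17, −1.19 to −0.51, adjusted p = 1.03e-05). In this split 23.8% of genes were called, 82 higher and 155 lower (135 and 130 with library totals alone). *Hes5* was at −0.39 (adjusted p = 0.142), *Hey1* at −0.09 (0.716) and *Hey2* at −0.03 (0.943). *Notch1* (−0.53, adjusted p = 0.014), *Notch2* (−0.41, 0.012) and *Rbpj* (−0.30, 0.0298) were lower in the same cells.

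*Hes1* was also higher in *Epcam*-positive cells, in a split that rests on few cells. *Epcam*, an adhesion gene of epithelium, had 3 or more transcripts in at least 5 of the other cells in 6 sections, 4 Knockout and 2 Wildtype, with 52 positive cells in all. *Hes1* was at 12.3, 15.5 and 29.2 transcripts per 10000 in the *Epcam*-positive cells (lowest, median and highest section) and at 6.43, 7.45 and 8.50 in the negative cells, and it was higher in the positive cells in 6 of 6 sections. The ranges did not overlap, although the positive cells of a section held only 4 to 28 *Hes1* transcripts. The log2 difference was 1.14 (SE 0.31, 0.53 to 1.75, adjusted p = 0.0185), in a split where 3.21% of genes were called, 17 higher and 15 lower (17 and 10 with library totals alone). It was 1.21 with library totals alone (adjusted p = 0.00962) and 1.22 in Knockout sections alone (0.0359), while the call was lost without section 8 (0.98, adjusted p = 0.154) or section 9 (1.07, 0.202). The other members did not pass, with −1.33 for *Hes5* (adjusted p = 0.342), 0.19 for *Hey1* (0.918) and 0.08 for *Hey2* (0.968). The median depth was 522 transcripts in the *Epcam*-positive and 141 in the negative cells, and its part in the result was not tested.

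**Figure D4:**
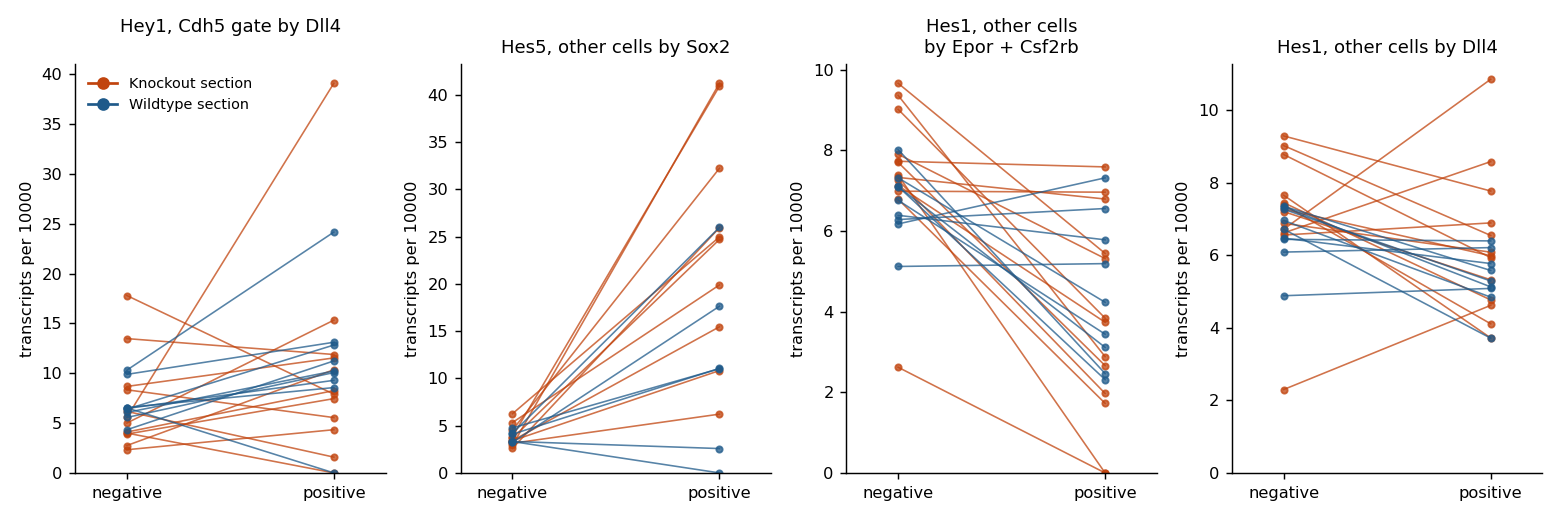
Levels of a member (transcripts per 10000, y axis) in marker-negative and marker-positive cells of each section, joined by a line, for the splits named above the panels. *Hes5* is higher in Sox2-positive cells in 14 of 16 sections, and *Hes1* is lower in cells with Epor and Csf2rb transcripts in 19 of 22.

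Co-detection with a ligand was tested as a rate, by setting cells with at least 1 transcript of *Dll1*, *Dll4*, *Jag1* or *Jag2* against cells of the same class and section with none. Of 64 tests (4 members in 16 splits), 1 was called and 8 had an unadjusted p under 0.05. Ligand-positive cells were deeper, with median transcripts of 503 against 390 in the *Cdh5* gate split by *Dll4* and 355.5 against 137 in the other cells split by *Dll4*. Whether 1 transcript marks a cell that expresses the ligand, rather than background, was not tested.

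*Hey1* was at its highest with a ligand in *Dll4*-positive cells of the *Cdh5* gate. *Dll4* is the ligand gene of arterial endothelium. *Hey1* was at 0, 10.1 and 39.1 transcripts per 10000 in 336 *Dll4*-positive cells (lowest, median and highest of 21 sections) and at 2.33, 6.17 and 17.8 in 1002 negative cells, and it was higher in the positive cells in 15 of 21 sections, 7 of 12 Knockout and 8 of 9 Wildtype. The log2 difference of 0.58 (SE 0.18, 0.22 to 0.93, adjusted p = 0.0551) just missed the threshold, in a split where 2.71% of genes were called. With cells of 200 or more transcripts it was 0.62 (adjusted p = 0.0325), and with library totals alone 0.64 (adjusted p = 0.0261). With 2 or more *Dll4* transcripts as the definition of positive it was 0.33 (adjusted p = 0.888), in Knockout sections alone 0.46 (0.748) and in Wildtype sections alone 0.69 (0.228). *Efnb2* was higher in the same *Dll4*-positive cells by 0.71 (adjusted p = 0.000856).

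With the other ligands, *Hey1* in the *Cdh5* gate was at −0.65 by *Dll1* (adjusted p = 0.197). By *Dll1*, Knockout sections alone gave −1.32 (adjusted p = 0.00675), with *Hey1* higher in the positive cells in 0 of 12 sections, and Wildtype sections alone −0.13 (adjusted p = 0.989), with 3 of 9, and the difference between the embryos was not tested. *Hey1* was at −0.09 by *Jag1* and −0.17 by *Jag2* (adjusted p of 0.982 and 0.978). The share of genes called in the splits by *Dll1*, *Jag1* and *Jag2* was 0.502, 0 and 0%, with 55 and 55 genes at an unadjusted p under 0.05 in the last 2. Over the 4 ligands, *Hes1* in the *Cdh5* gate lay between −0.22 and 0.33, *Hes5* between −0.52 and 0.06 and *Hey2* between −0.25 and 0.52, with no adjusted p below 0.680.

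The 1 member called was *Hes1* in the other cells, where it was lower in *Dll4*-positive cells. *Hes1* was at 3.71, 5.68 and 10.9 transcripts per 10000 in positive cells and at 2.30, 7.08 and 9.29 in negative cells, lower in the positive cells in 16 of 22 sections. The log2 difference was −0.31 (SE 0.08, −0.48 to −0.14, adjusted p = 0.0035), where 12.1% of genes were called, 55 higher and 66 lower (97 and 54 with library totals alone). The splits of the other cells by *Dll1*, *Jag1* and *Jag2* called 15, 9.73 and 5.42% of genes and no member. Each embryo alone gave the same size without passing the threshold, −0.31 in Knockout (adjusted p = 0.0802) and −0.32 in Wildtype sections (0.108). Cells with 200 or more transcripts gave −0.26 (adjusted p = 0.0549). In the *Tagln* + *Acta2* and *Twist1* gates no member passed the threshold with any ligand, the lowest adjusted p being 0.515 and 0.604, in splits where 0.101, 1.01, 0.201 and 0.804% and 0.402, 1.10, 0.100 and 0% of genes were called by *Dll1*, *Dll4*, *Jag1* and *Jag2* (80 genes at an unadjusted p under 0.05 in the last).

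At a fixed depth of 100 transcripts, the share of *Cdh5*-gated cells with both *Hey1* and *Dll4* was 0.753%, against 0.565% for the product of the separate shares in the same sections. The ratio of 1.33 was the highest of 16 member and ligand pairs in that gate, and *Hey1* with *Dll1* had the lowest, 0.735. The share was above the product in 15 of 21 sections, with a mean difference of 0.188 ± 0.407 percentage points, so the mean was smaller than the spread between sections. In the *Cdh5* gate 8 of 16 pairs were above 1. The ratios ran from 0.654 to 1.48 in the *Tagln* + *Acta2* gate, from 0.706 to 1.48 in the *Twist1* gate and from 0.821 to 1.26 in the other cells. Between members, the ratios lay between 0.906 and 1.19 in the *Cdh5* gate, 0.939 and 1.22 in the *Twist1* gate and 0.948 and 1.13 in the other cells. In the *Tagln* + *Acta2* gate they ran from 0.716 to 2.04 (*Hes5* with *Hey2*), and 1 of 6 member pairs was above 1.

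**Figure D5:**
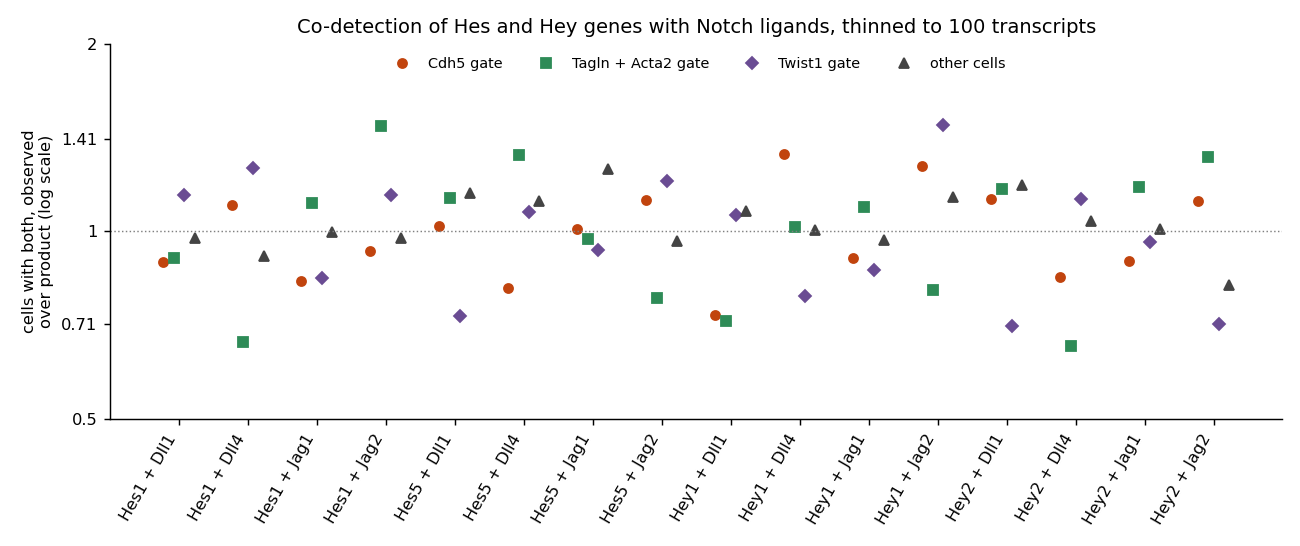
Ratio of the share of cells with both a member and a ligand to the product of the 2 shares (y axis), for the 16 member and ligand pairs in each class of cells, at 100 transcripts per cell. A ratio of 1 is what independent detection gives. *Hey1* with *Dll4* in the Cdh5 gate is at 1.33 and *Hey1* with *Dll1* at 0.735.

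The *Cdh5* gate was also split by *Runx1*, the transcription factor gene of hemogenic endothelium, and by *Kit*, a receptor gene of intra-aortic clusters. There were 249 *Runx1*-positive and 217 *Kit*-positive cells in 20 sections. No member was called, where 0.602% and 0% of genes were, with 59 genes at an unadjusted p under 0.05 in the split by *Kit*. *Hes1* was at −0.54 in *Runx1*-positive cells (adjusted p = 0.552) and −0.47 in *Kit*-positive cells (adjusted p = 0.812). By *Runx1*, Knockout sections alone gave −1.04 (adjusted p = 0.295) and Wildtype sections alone 0.04 (adjusted p = 0.984).

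The genes most like *Hey1* across sections and classes were endothelial. Over 87 section and class values, which share sections and depth, Pearson's r of log2 levels was 0.56 with *Tie1* (an endothelial receptor), 0.54 with *Dll4* and 0.50 with *Esam* (an endothelial adhesion gene), among 994 genes. These values include the *Cdh5* gate, where all of these genes were higher, so the likeness is not separate from that difference. *Hes1* was most like *Lamp2* (0.47), *Snai2* (0.43) and *Ptges2* (0.42), *Hes5* most like *Fzd3* (0.54), *Inhba* (0.54) and *Hcar2* (0.50), and for *Hey2* r was 0.44 with *Bid* and 0.43 with *Nfatc1*. By Spearman's rank, *Tie1* and *Dll4* were again the first 2 for *Hey1*, while *Snai2* fell to rank 175 for *Hes1* and *Bid* to rank 95 for *Hey2*. Between members r lay between −0.29 (*Hes1* with *Hey1*) and 0.20 (*Hey1* with *Hey2*), so the 4 genes did not share 1 pattern in these sections.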

How the data were processed

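Single-transcript counts of 998 genes in segmented cells were deposited by the authors for 22 sections, imaged on the CosMx platform and exported with AtoMx and Seurat, in whole-number counts without normalisation. Counts were summed per section and class of cells (classes with at least 10 cells, splits with at least 5 cells on each side). Sums were tested with edgeR 4.0.16 (quasi-likelihood, robust, TMM, filterByExpr minimum 3, Benjamini-Hochberg over all genes, threshold 0.05), with section as a block for comparisons within sections. Sums per class correct for depth but not for transcripts assigned to a neighbouring cell. DESeq2 1.42.0 and limma 3.58.1 served as alternatives, beside other scalings, filters, gates, depths and section sets. Intervals are 95%. Members, gates, lists and splits were chosen with earlier results of these data known. The named genes were the members, 9 core Notch genes, arterial and venous markers, targeted genes, and the 3 genes most similar to each member by Pearson's r of log2(transcripts per 10000 + 1), of which 1 gene is not reported here. Shares were thinned by the exact hypergeometric probability. 1 of 7 neural markers was not measured.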

Additional observations from a re-analysis of the deposited data

Results flagged for a closer look

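Wildtype section 17 stood apart from the other 8 Wildtype sections in 2 of 20 tested sets of values (4 genes in 5 classes), where chance gives about 1 in 20. The sets were of Wildtype sections; the 12 or 13 Knockout sections of a class were not tested, since critical values were used for up to 10 sections. In section 17 the *Hes1* level in the other cells was the lowest, at 4.92 transcripts per 10000 (90 transcripts) against 6.10 in the nearest section. Its *Hes5* level in the *Cdh5* gate was the highest, at 6.99 transcripts per 10000 (7 transcripts) against 4.55 in the nearest. Knockout section 13, not tested in this way, lay far below the others for *Hes1*, at 2.72 transcripts per 10000 over all cells against 6.63 in the nearest section and at 2.55 against 6.60 in the other cells. Without section 13, *Hes1* between embryos was at 0.49 over all cells (adjusted p = 1.01e-05) and 0.48 in the other cells (adjusted p = 7.69e-05) in the edgeR test.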

How the results depend on the processing

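No called value changed direction under any alternative; among values below the threshold on both sides, the sign changed in 22 class, 43 embryo, 2 *Runx1* or *Kit*, 69 ligand and 14 marker results and settings. For *Hes1* between embryos, the call was lost with library totals alone (0.16 over all cells, 0.28 in the *Twist1* gate, 0.15 in the other cells), with numbered sets as a random block (0.40, 0.43, 0.41), in sections numbered 2 alone (0.48, 0.61, 0.48) and, in the *Twist1* gate, in sections numbered 1 alone (0.35), without sections of unusual depth (0.43, adjusted p = 0.120) and with looser (0.34) and stricter (0.47) gates. Leaving out each section gave 0.44 to 0.58 in the *Twist1* gate, and the call was lost without sections 2, 8, 9, 11, 15, 18, 19, 20 or 21. A looser *Cdh5* gate gave *Hes1* 0.56 (adjusted p = 0.0158). *Hes5* in the other cells passed without sections of unusual depth (0.66) and in sections numbered 2 (0.93), and *Hey2* with library totals alone (−0.36 over all cells, −0.44 in the other cells).

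Between gates and other cells, *Hey2* in the *Cdh5* gate was lost with looser (0.30) and stricter (0.49) gates and in Wildtype sections alone (0.33). *Hes5* in the *Twist1* gate was lost with DESeq2 (−0.36), in Wildtype sections alone (−0.094) and in cells of 200 or more transcripts (−0.25). *Hes5* passed with library totals alone in the *Cdh5* (−0.39) and *Tagln* + *Acta2* gates (−0.45), and with a looser gate in the latter (−0.54). *Hey2* in the *Twist1* gate passed with DESeq2 (0.29) and with cells of several gates kept (0.30), a setting that also gave *Hey1* 0.39 and *Hey2* 0.43 in the *Tagln* + *Acta2* gate. *Hey1* in the *Twist1* gate passed with a looser gate (−0.24), and *Hes1* in the *Tagln* + *Acta2* gate in cells of 200 or more transcripts (0.33). Leaving out each section gave 0.24 to 0.31 for *Hey2* in the *Twist1* gate, passing without sections 1, 4, 11, 15 or 16, and 0.21 to 0.31 for *Hes1* in the *Tagln* + *Acta2* gate, passing without sections 9 or 20.

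In the splits, *Hey1* by *Dll4* in the *Cdh5* gate passed with library totals alone (0.64) and in cells of 200 or more transcripts (0.62), but fell to 0.33 (adjusted p = 0.888) with 2 or more *Dll4* transcripts as positive and did not pass in Knockout (0.46) or Wildtype sections alone (0.69). Leaving out each section, an alternative chosen after seeing the data, gave 0.49 to 0.67 for it, passing without sections 1, 2, 3, 4, 8 or 17. *Hey1* by *Dll1* passed in Knockout sections alone (−1.32) and was at −0.13 in Wildtype sections alone. *Hes1* by *Dll4* in the other cells was lost in Knockout (−0.31) and Wildtype sections alone (−0.32) and in cells of 200 or more transcripts (−0.26), and leaving out each section gave −0.36 to −0.28. In *Sox2*-positive cells *Hes5* was lost in Wildtype sections alone (1.53) and ranged from 2.28 to 2.61 without 1 section, and *Hey1* passed in Knockout sections alone (0.87) and without sections 5, 8, 16, 18 or 22 (0.58 to 0.76 over all such fits). In *Epcam*-positive cells *Hes1* ranged from 0.98 to 1.297 without 1 section, and the call was lost without sections 8 or 9. *Hes5* in *Epor* and *Csf2rb* cells passed in Knockout sections alone (−0.98), and *Hes1* there ranged from −0.94 to −0.76 without 1 section.

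The number of all genes called between embryos moved from 125 to 777 with library totals alone and 55 in sections numbered 1 over all cells; from 65 to 15 (numbered 1) and 21 (stricter gate) in the *Cdh5* gate; from 26 to 13 (library totals), 44 (DESeq2), 16 (unusual depth left out), 2 (numbered 1), 7 (numbered 2) and 7 (stricter) in the *Tagln* + *Acta2* gate; from 39 to 157 (library totals), 62 (DESeq2) and 2 (numbered 1) in the *Twist1* gate; and to 767 (library totals) and 61 (numbered 1) in the other cells. For gates against other cells it moved from 191 to 76 (Wildtype alone) in the *Cdh5* gate, from 142 to 287 (library totals) and 60 (Wildtype alone) in the *Tagln* + *Acta2* gate, and from 96 to 54 (Knockout alone), 38 (Wildtype alone) and 38 (no section block) in the *Twist1* gate. DESeq2 gave no adjusted p for 10 member results. No paired analysis was possible between embryos because each embryo's sections lie on slides of their own and the replicate numbers, given in accession order, tie no section of 1 embryo to a section of the other. The causes were not tested. *Hey2* and *Hes5* rest on few transcripts per section in the gates, which limits their precision.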
